A study of Mus musculus with 7 samples.

Results

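The genes described here carry the type I interferon signal from the cell surface to the nucleus: the receptor subunits Ifnar1 and Ifnar2, the Janus kinases Jak1 and Tyk2, the transcription factor gene Stat2, and the interferon regulatory factor (IRF) genes Irf1, Irf3, Irf7 and Irf9. They were chosen by name, 9 of 21900 protein-coding genes, and each was looked up in a table of read counts for dimethylated lysine 79 of histone H3 (H3K79me2) in mouse macrophages. Of the 29397 regions in that table, 24 overlapped the RefSeq span of one of these genes. They covered 8 of the 9 genes, where 43.4% of all protein-coding genes had a region. Irf7 had no region and is therefore unmarked in this table. Where a gene had several regions, the one with the highest mean count stands for the gene.

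The libraries came from bone marrow cells of C57BL/6 mice, grown into macrophages over 7 to 8 days with a source of M-CSF, and compared 2 treatments. The first group, 3 libraries, received SGC0946 at 1 µM while the cells differentiated. This compound blocks DOT1L, the enzyme that methylates H3K79. The other group, also 3 libraries, received the solvent DMSO over the same time. All 6 were H3K79me2 chromatin immunoprecipitation (ChIP-seq) libraries, and the input library of the series was not used here. The labels' growth protocol names WT and KO mice, and neither the genotype behind these libraries nor the age of the mice is given. No spike-in is described, so on unscaled counts a loss of the mark cannot be told apart from a difference in the yield or depth of the libraries. The series calls the libraries biological replicates without naming separate mice, so p-values measure the spread between these libraries.

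As background, interferon alpha and beta bind a receptor made of IFNAR1 and IFNAR2. TYK2 is bound to IFNAR1 and JAK1 to IFNAR2, and these kinases phosphorylate STAT proteins. STAT2 joins IRF9 in the complex ISGF3, which switches on interferon-stimulated genes. IRF3 and IRF7 act upstream and turn on the interferon genes themselves after viral nucleic acid is sensed, while IRF1 is induced strongly by interferon gamma. H3K79me2 is laid down by DOT1L over the early transcribed part of active genes.

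Summed over the regions of the table, the libraries held 2.95 to 3.13 M counts in the SGC0946 group, against 16.7 to 19.5 M counts in the DMSO group. Library totals here are these sums, without reads outside the regions. Total counts with SGC0946 were thus 17.1% of those with DMSO, and the share of a library that falls in a region and the unscaled count of that region answer different questions. All 10 macrophage marker genes looked up had a region, and 20 of 25 markers of other cell types (lymphocytes, neutrophils, erythroid, dendritic, stromal and endothelial cells) had none. The exceptions were Lck, Mpo, Klf1, Zbtb46 and Cxcl12.

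The regions began near the gene starts. Those of Ifnar1, Irf1, Stat2, Jak1 and Tyk2 reached 88, 141, 142, 172 and 204 bp upstream of the first transcription start listed by RefSeq. That of Ifnar2 reached 1255 bp upstream. The listed starts of Ifnar1, Jak1 and Tyk2 lie inside their gene spans. For Ifnar1 the span begins at 91485032 and the listed start is 91485215, so its region lies wholly inside the span. The region of Irf3 began 255 bp and that of Irf9 466 bp after the first listed start. The region covered the first start in 6 of the 8 genes, compared with 46.7% of 7757 coding genes with a region and a listed start. The sequence just upstream of the first listed start is shown for 4 genes, on GRCm38.p6 (the assembly that mm10 names). Each has 250 bases, 5′ to 3′ on the strand of the gene and credited to RefSeq. The span of Irf7, on the minus strand, reaches to 141266499, so the last bases of its window lie inside the span. Irf1 and Stat2 are shown because a match to a sequence of their own pathway lies there, Ifnar2 because it stood apart from the other genes in the comparison, and Irf7 because it lacked a region. Capitals mark matches to the STAT-binding GAS sequence TTCNNNGAA or to the core of the interferon-stimulated response element (ISRE), GAAANN followed directly by GAAA, searched on both strands.
Irf1 (chr11:53769764-53770013, plus strand): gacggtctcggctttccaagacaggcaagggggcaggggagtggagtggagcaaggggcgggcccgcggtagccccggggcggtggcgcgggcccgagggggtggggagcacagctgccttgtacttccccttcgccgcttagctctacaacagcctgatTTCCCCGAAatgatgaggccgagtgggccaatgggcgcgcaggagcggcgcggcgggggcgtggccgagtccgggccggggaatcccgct
Stat2 (chr10:128270248-128270497, plus strand): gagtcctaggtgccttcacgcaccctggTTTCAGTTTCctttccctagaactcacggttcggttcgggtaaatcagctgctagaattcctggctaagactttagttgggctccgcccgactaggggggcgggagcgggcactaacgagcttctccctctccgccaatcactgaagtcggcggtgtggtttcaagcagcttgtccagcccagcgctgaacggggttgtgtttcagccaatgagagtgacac
Ifnar2 (chr16:91372533-91372782, plus strand): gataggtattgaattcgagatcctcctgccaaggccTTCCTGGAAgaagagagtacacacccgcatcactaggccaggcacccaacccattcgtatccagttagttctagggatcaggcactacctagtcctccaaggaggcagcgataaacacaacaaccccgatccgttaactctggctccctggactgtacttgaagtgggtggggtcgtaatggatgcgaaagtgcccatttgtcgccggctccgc
Irf7 (chr7:141266425-141266674, minus strand): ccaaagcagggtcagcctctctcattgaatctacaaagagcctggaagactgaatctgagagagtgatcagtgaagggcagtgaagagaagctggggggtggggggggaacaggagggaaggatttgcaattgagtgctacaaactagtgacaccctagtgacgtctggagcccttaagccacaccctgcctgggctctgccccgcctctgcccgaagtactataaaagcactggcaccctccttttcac

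The GAS match of Irf1 (TTCCCCGAA) lay 82 to 90 bases before the start, inside the marked region. The ISRE match of Stat2 (TTTCAGTTTC, on the reverse strand) lay 213 to 222 bases before the start, outside the marked region, which began 142 bp before it. Ifnar2 had a GAS match (TTCCTGGAA) 206 to 214 bases before the start, within its region. The other 6 genes, Irf7 and Irf9 among them, had neither sequence in this window. Among 32851 windows of this length listed for mouse genes, 7.02% held the GAS letters and 2.98% the ISRE core. These matches describe the letters only.

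With SGC0946 the mark fell at all 8 genes on unscaled counts. They kept between 11.3% (Jak1) and 18.7% (Ifnar2) of their DMSO counts, and the lowest DMSO library held from 4.92 times (Ifnar2) to 7.85 times (Jak1) the count of the highest SGC0946 library. The fall was called for 8 of 8 genes (edgeR quasi-likelihood test, Benjamini-Hochberg adjusted p under 0.05, equal library sizes) and never a rise, as the fall was for 99.8% of the 9094 coding genes and 99.7% of all regions tested (0.0201% of regions and 0.022% of coding genes were called higher). The median over coding genes was a kept share of 14.0%, with the middle 50% between 12.4% and 17.0%, and the median of the 8 genes was 13.8%. Scaled by library totals, 5 of the 8 genes fell further than the library as a whole (50.1% of the 9089 coding genes and 23.3% of all regions tested were called lower in share) and 1 rose (9.98% of coding genes and 6.16% of regions were called higher), namely Ifnar2, whose direction depends on the scaling (log2 0.13 with library totals, -0.55 on the sparsest 25% of regions). Tyk2 and Irf9 did not pass. The median log2 change in share was -0.30 for the 8 genes and -0.29 for the coding genes tested.

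**Figure D1:**
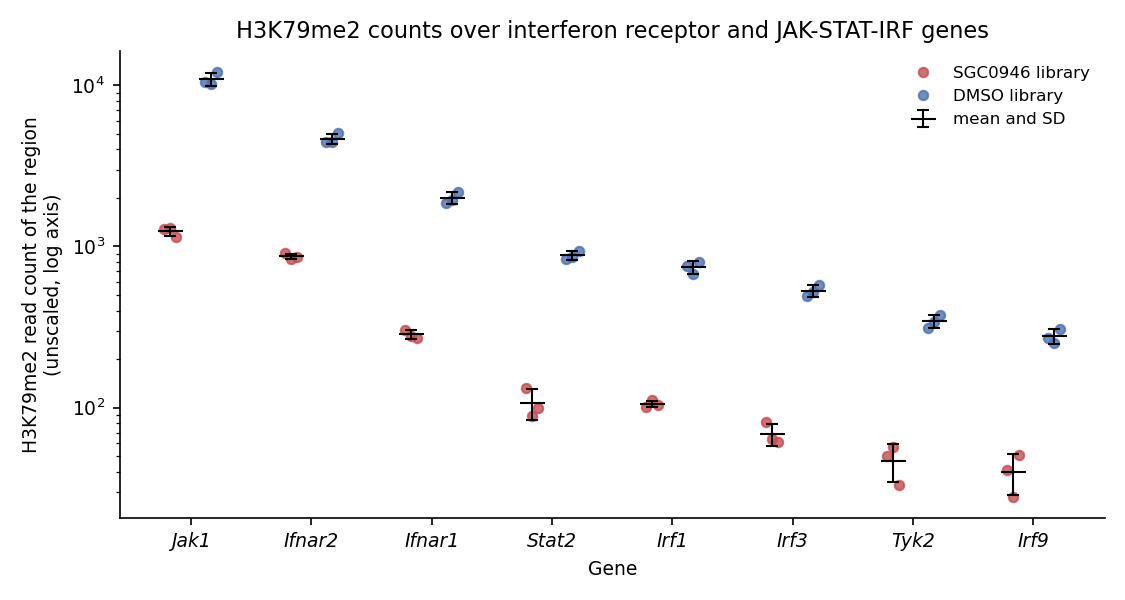
Unscaled H3K79me2 read counts of the region that stands for each gene (log axis), with 1 point per library, SGC0946 left of DMSO for each gene, and the mean with SD over 3 libraries. The groups do not overlap at any of the 8 genes, and how often this holds over all coding genes was not counted. All 8 genes were called lower on unscaled counts, as were 99.8% of coding genes tested. The DMSO means run from 10954 counts at Jak1 to 277 at Irf9.

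Among the receptor subunits, Ifnar2, the signalling subunit that holds JAK1, was the most densely marked of the genes. Its region (chromosome 16, 91371528 to 91386709 on mm10, 15182 bp) held 57.3 ± 2.22 counts per kb with SGC0946 and 307 ± 21.9 counts per kb with DMSO (SD, n = 3 each). The DMSO density lay at percentile 96.3 among coding genes with a region. The region also overlapped the non-coding gene Gm36587 and covered 42.5% of the Ifnar2 span. The counts were 906, 839 and 866 in the SGC0946 libraries, against 4458, 4475 and 5042 in the DMSO libraries. The groups were far apart, and the unscaled log2 fold change was -2.42 ± 0.10 (SE, adjusted p = 6.7e-117). In share of the library the order was the opposite: 289, 279 and 293 CPM (the count scaled to a common library total) with SGC0946, against 266, 263 and 258 CPM with DMSO. All SGC0946 libraries were higher in share than all DMSO libraries, by log2 0.13 ± 0.045 (SE, adjusted p = 0.0204, edgeR). The settings under which the call was lost included leaving out DMSO replicate 3 (adjusted p = 0.0799), SGC0946 replicate 1 (0.0694) or SGC0946 replicate 3 (0.0839), and summing all regions of the gene (0.0590). That sum takes in a region with 3096 of its 11751 bp in the Ifnar2 span and 8088 bp in the neighbouring gene Il10rb. The region that stands for Ifnar2 held 65.3% of the summed DMSO counts. Scaling on the sparsest 25% of regions (the sparse scaling), which moved the median of coding genes by -0.70, turned the direction to log2 -0.55 (adjusted p = 0.00802). Relative to the median of coding genes, Ifnar2 lay 0.41 higher with library totals and 0.44 higher with that setting.

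Ifnar1, the subunit that holds TYK2, was marked from 88 bp upstream of its listed start over 9855 bp (chromosome 16, 91485127 to 91494981). That region lay inside the gene span and covered 38.7% of it. It held 29.0 ± 1.76 counts per kb with SGC0946 and 203 ± 17.2 with DMSO (SD, n = 3 each). The counts were 305, 279 and 272 with SGC0946, against 1864, 1952 and 2192 with DMSO, so that 14.2% was kept (unscaled log2 -2.81 ± 0.12 SE, adjusted p = 1.0e-126). Its share of the library fell by 0.26 on the log2 scale (SE 0.061, adjusted p = 0.000361), a value 0.024 above the median of coding genes. That call was lost with TMM factors (adjusted p = 0.215), DESeq2 size factors (0.183) and the DESeq2 Wald test (0.251), which moved the median of coding genes by 0.14, 0.11 and 0.13.

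In these libraries the 2 subunits of the receptor kept 14.2% (Ifnar1) and 18.7% (Ifnar2) of their DMSO counts. The count of Ifnar1 divided by that of Ifnar2 does not depend on how libraries are scaled. It was 0.337, 0.333 and 0.314 in the SGC0946 libraries, against 0.418, 0.436 and 0.435 in the DMSO libraries. The ratio was lower in every SGC0946 library, by log2 -0.39 ± 0.037 (SE; exact 2-sided permutation p = 0.1, the lowest possible with 3 libraries a group, and 0.3 adjusted over the 3 pairs compared). With all regions of each gene summed the difference was -0.33, where the sum for Ifnar2 takes in the region that runs into Il10rb.

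Both subunits lie in a cluster of receptor genes on chromosome 16, in the order Ifnar2, Il10rb, Ifnar1 and Ifngr2. The strong regions over Ifnar2, at the end of Ifnar2 and into Il10rb, over Ifnar1 and over Ifngr2 kept 18.7%, 17.6%, 14.2% and 21.1% of their DMSO counts. Ifngr2, a subunit of the interferon gamma receptor, had 979 ± 56.0 counts with SGC0946 and 4644 ± 253 with DMSO (SD, n = 3 each). Its share rose by log2 0.30 ± 0.044 (SE, adjusted p = 4.7e-08), and it was -0.39 (adjusted p = 0.0701) with scaling on the sparsest 25% of regions. The region between Ifnar2 and Il10rb, the gene of a subunit shared by receptors of the interleukin 10 and interferon lambda families, lay over both genes and did not pass (log2 share 0.045, adjusted p = 0.633). It was called higher with TMM factors (log2 0.18, adjusted p = 0.0343) and lower under the sparse scaling (-0.65, adjusted p = 0.000776).

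Downstream of the region that stands for the gene, each receptor subunit carried 6 small regions over its span alone, which in Ifnar2 lay before the region shared with Il10rb. Those of Ifnar1 summed to 31, 31 and 25 counts with SGC0946 and 142, 138 and 198 with DMSO, over 4385 bp, and 18.2% was kept. Those of Ifnar2 summed to 41, 55 and 44 counts with SGC0946 and 266, 269 and 281 with DMSO, over 6784 bp, and 17.2% was kept. Stat2 had 2 more such regions and Irf1 1. These 15 small regions held 2.79 to 10.4 counts per kb with SGC0946 and 25.1 to 66.7 counts per kb with DMSO, under the regions that stand for Ifnar1, Ifnar2, Stat2 and Irf1. The upper ends of these ranges lay near the regions of Tyk2 and Irf9 (10.2 and 10.1 counts per kb with SGC0946, 74.9 and 69.7 with DMSO). With the region shared with Il10rb, 13 of the 16 regions beside those that stand for a gene passed the count filter for the test of share, and none was called. Of all regions tested, 23.3% were called lower in share and 6.16% higher. Mean counts of 1.67 to 11.3 with SGC0946 at the 15 small regions limit what can be called there. On unscaled counts 15 were tested and all 15 fell, as did 99.7% of all regions tested.

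**Figure D2:**
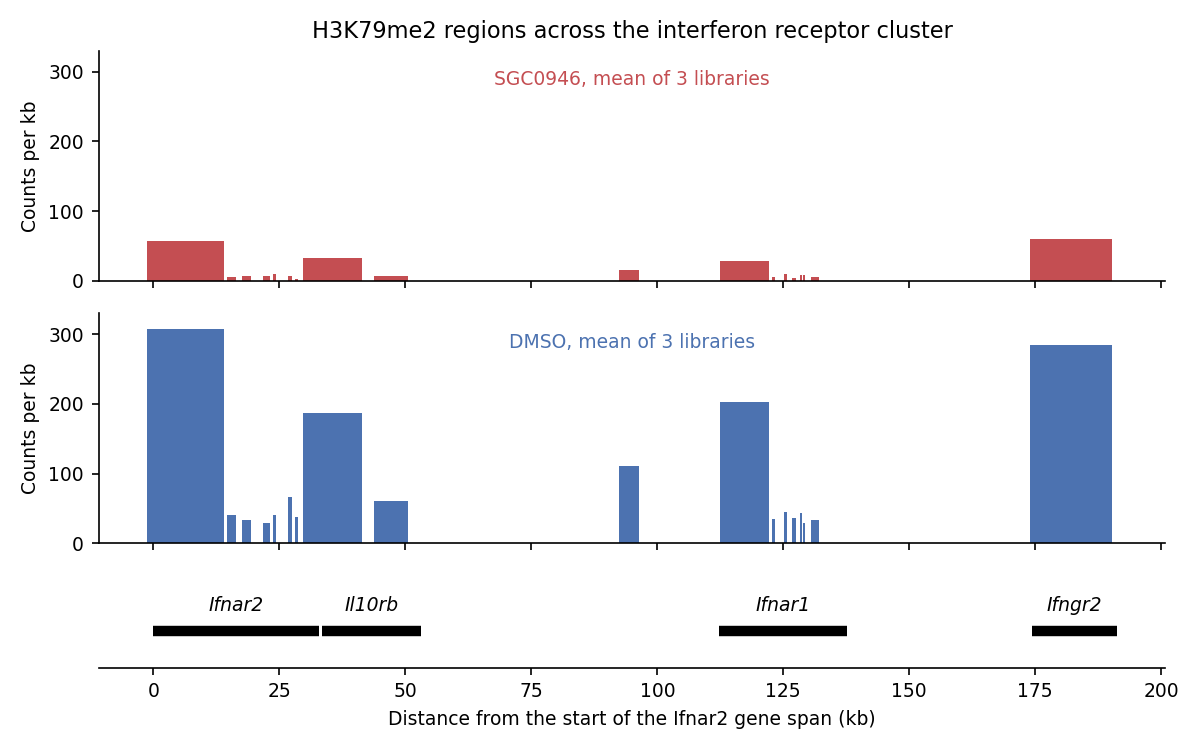
Mean H3K79me2 counts per kb of each region (bars as wide as the region, 3 libraries per group, SGC0946 above DMSO) by distance in kb from the start of the Ifnar2 span, with gene spans as black lines below. The densest regions lie over Ifnar2 (57.3 with SGC0946, 307 with DMSO) and Ifngr2 (59.9 with SGC0946, 284 with DMSO).

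Of the kinases, Jak1 kept the smallest percentage of its DMSO counts among the 8 genes (11.3%). Its change in share lay within the combined SE (0.103) of that of Stat2. Its region was also the longest and held the most counts, 71585 bp from the start into 63.1% of the span (chromosome 4, 101193811 to 101265395), with a length at percentile 99.3 among coding genes. The counts were 1279, 1303 and 1146 in the SGC0946 libraries, against 10522, 10230 and 12111 in the DMSO libraries. The groups were apart by 7.85 times at their nearest libraries, and the unscaled log2 fold change was -3.14 ± 0.10 (SE, adjusted p = 8.7e-197). In share, Jak1 had 408, 433 and 388 CPM with SGC0946 and 629, 602 and 620 CPM with DMSO, a log2 change of -0.59 ± 0.041 (SE, adjusted p = 7.0e-20). It lay 0.30 under the median of coding genes and at percentile 9.76 of the percentage kept. The fall in share was called under every alternative run, with log2 values from -1.28 to -0.45.

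By the distance over the 6 libraries in log2(CPM per kb + 0.1), the coding genes most like Jak1 were Stard3 (distance 0.10), Zfand3 (0.10) and Sugt1 (0.11). Jak1 had 5.73 CPM per kb with SGC0946 and 8.62 with DMSO. The kept percentages of the 3 genes were 11.2%, 11.5% and 11.2%, and their likeness to that of Jak1 follows from the choice by the same libraries.

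Tyk2, the partner kinase of JAK1 at this receptor, was marked over 4593 bp at its start (chromosome 9, 21126887 to 21131479), 16.5% of its span. Its counts were 50, 57 and 33 with SGC0946, against 314, 341 and 377 with DMSO. Unscaled counts fell without overlap (13.6% kept, log2 -2.88 ± 0.17 SE, adjusted p = 4.8e-64). In share the groups overlapped, with 15.96, 19.0 and 11.2 CPM with SGC0946 and 18.8, 20.1 and 19.3 CPM with DMSO, and the change did not pass (log2 -0.33 ± 0.14 SE, adjusted p = 0.0675). It passed without SGC0946 replicate 2 (adjusted p = 0.0128), without DMSO replicate 1 (0.0411), with a minimum mean of 50 counts (0.0449) and on scaling by the sparsest 25% of regions (6.7e-10). Without SGC0946 replicate 3 the log2 change was -0.15 (adjusted p = 0.581). The ratio of Jak1 to Tyk2 counts was 25.6, 22.9 and 34.7 with SGC0946 and 33.5, 30.0 and 32.1 with DMSO, so the groups overlapped (exact permutation p = 0.4, 0.6 adjusted over the 3 pairs).

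Stat2, the STAT specific to interferon alpha, beta and lambda signalling, kept less than most genes. Its region (chromosome 10, 128270356 to 128278119, 7764 bp) covered 34.1% of the span and also 895 bp of the neighbouring gene Apof. The counts were 133, 89 and 99 in the SGC0946 libraries, against 840, 856 and 941 in the DMSO libraries. That left 12.2%, at percentile 21.2 among coding genes (unscaled log2 -3.04 ± 0.14 SE, adjusted p = 2.8e-107). All SGC0946 libraries were lower in share than all DMSO libraries (log2 -0.49 ± 0.095 SE, adjusted p = 1.7e-05). Like that of Jak1, this call held under every alternative run, with adjusted p of at most 0.0292.

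Irf9, the DNA-binding partner of STAT2, had the thinnest mark of the 8 genes. Its region (chromosome 14, 55604451 to 55608423, 3973 bp) held 10.1 ± 2.90 counts per kb with SGC0946 and 69.7 ± 7.17 with DMSO (SD, n = 3 each). The counts were 41, 28 and 51 with SGC0946, against 271, 252 and 308 with DMSO, and 14.4% was kept (unscaled log2 -2.79 ± 0.18 SE, adjusted p = 5.7e-55). Its share overlapped between the groups (log2 -0.24 ± 0.15 SE, adjusted p = 0.274). Without SGC0946 replicate 3 it was called lower (adjusted p = 0.0429), as with scaling on the sparsest 25% of regions (1.2e-07). Without SGC0946 replicate 2 its log2 share was -0.045 (adjusted p = 0.918). The ratio of Stat2 to Irf9 was 3.24, 3.18 and 1.94 with SGC0946 and 3.10, 3.40 and 3.06 with DMSO (exact permutation p = 0.6, also 0.6 adjusted over the 3 pairs). Its log2 difference of -0.23 became 0.014 without SGC0946 replicate 3.

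Irf1 was marked over 80.7% of its span (chromosome 11, 53769873 to 53776762, 6890 bp) with 101, 111 and 104 counts with SGC0946, against 757, 673 and 806 with DMSO. It kept 14.1% (unscaled log2 -2.82 ± 0.14 SE, adjusted p = 2.8e-90), and its share fell by 0.27 on the log2 scale (SE 0.096, adjusted p = 0.0220), 0.012 above the median of coding genes. The call in share was lost without DMSO replicate 1 (adjusted p = 0.0591), without SGC0946 replicate 1 (0.179), and with TMM factors (0.343), DESeq2 size factors (0.248) and the DESeq2 Wald test (0.481).

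Irf3, whose product waits in the cytoplasm until it is phosphorylated by TBK1, was marked over 95.1% of its short span. Its region (chromosome 7, 44997903 to 45003676, 5774 bp) ran 731 bp into Scaf1. The counts were 81, 64 and 61 in the SGC0946 libraries, against 494, 520 and 580 in the DMSO libraries, and 12.9% was kept (unscaled log2 -2.95 ± 0.15 SE, adjusted p = 2.2e-82). The share fell by 0.40 on the log2 scale (SE 0.11, adjusted p = 0.00323), a call lost with TMM factors (adjusted p = 0.0737) and the DESeq2 Wald test (0.169).

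Irf7, the IRF that amplifies the interferon response once it is induced, had no region over its 3317 bp span (chromosome 7, 141263183 to 141266499). It lay in a stretch of 78.8 kb without any region. The nearest regions were 18.4 kb away over Phrf1, with means of 7.67 counts with SGC0946 and 35.7 with DMSO, and 57.1 kb away over Deaf1, with 40.7 counts with SGC0946 and 229 with DMSO. A ratio of Irf3 to Irf7 could therefore not be formed.

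In order of change in share the genes ran from Ifnar2 through Irf9, Ifnar1, Irf1, Tyk2, Irf3 and Stat2 to Jak1. The step from Ifnar2 to Irf9 was log2 0.37, larger than its combined SE of 0.16. None of the other 6 steps between neighbours, 0.012 to 0.10, was larger than its combined SE of 0.10 to 0.18. By counts per kb with DMSO the order was Ifnar2, Ifnar1, Jak1 (153), Stat2 (113), Irf1 (108), Irf3 (92.0), Tyk2 (74.9) and Irf9, where coding genes with a region had a median of 108.

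**Figure D3:**
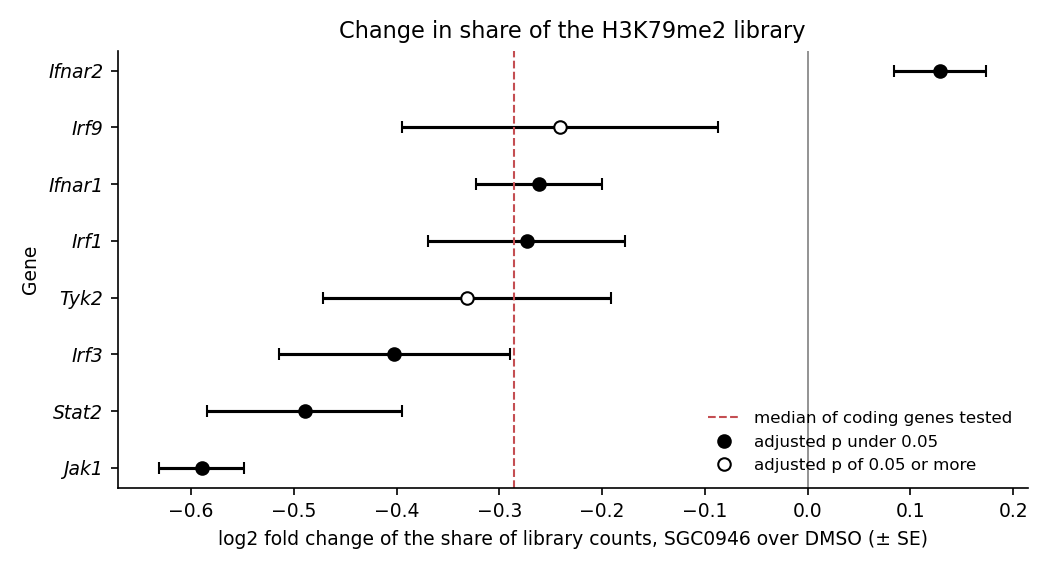
Log2 fold change of each region's share of its library, SGC0946 over DMSO, with SE (3 libraries per group), where 0 is the change of the whole library and the dashed line the median of coding genes tested (-0.29). Ifnar2 at 0.13 (-0.55 when scaled on the sparsest 25% of regions) lies right of 0, and Jak1 at -0.59 and Stat2 at -0.49 lie farthest left.

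The rest of the pathway was followed in 7 lists with 113 genes in all. Of these, 79 had a region (43.4% of all coding genes did), and each of the 79 fell on unscaled counts, as did 99.8% of coding genes tested. In share 8 rose (0 under the sparse scaling, 13 with TMM factors), 28 fell (59 under the sparse scaling, 18 with TMM factors) and 43 did not pass, where 9.98% of all coding genes tested were called higher and 50.1% lower. The median kept was 15.3%, against 14.0% over coding genes. No region overlapped any of 11 interferon genes, the ligands. Of 9 further receptors and Janus kinases, 8 had a region, of which 2 rose, 2 fell and 4 did not pass in share (9.98% of coding genes were called higher and 50.1% lower). Il6st, the shared signalling subunit of interleukin 6 type receptors, kept 21.7% and rose in share like Ifngr2 (log2 0.35, adjusted p = 2.0e-09), turning to -0.33 (adjusted p = 0.123) with scaling on the sparsest 25% of regions. Il6ra kept 13.4% (log2 share -0.35, adjusted p = 2.9e-08) and Jak2, a kinase of the interferon gamma receptor, 13.2% (log2 share -0.37, adjusted p = 0.00360).

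All 6 other STAT genes had a region, and 4 fell in share, while 2 did not pass. With 50.1% of coding genes called lower, that count is near the background. Stat5b, which transmits growth hormone and cytokine signals, kept 11.3% (log2 share -0.60, adjusted p = 3.3e-19). Stat6, the factor of interleukin 4 signalling, kept 14.2% (log2 share -0.26, adjusted p = 0.00220, and 0.0535 without SGC0946 replicate 3). Stat5a had 19.0 ± 5.29 counts with SGC0946 and 81.7 ± 12.9 with DMSO (SD, n = 3 each), and its share did not pass (log2 0.45, adjusted p = 0.162). Among 5 other IRF genes, 3 had a region. Irf2, which can oppose IRF1, kept 15.0% and fell in share (log2 -0.19, adjusted p = 1.6e-05), while Irf8, a factor of the myeloid lineage, kept 18.1% (log2 share 0.081, adjusted p = 0.317) and Irf5 (17.1%, log2 share 0.0063, adjusted p = 0.960) did not pass. The result for Irf8 depended on the setting: it was called higher with TMM factors (log2 0.22, adjusted p = 0.00820), and lower with its regions summed (-0.20, adjusted p = 0.000750) and under the sparse scaling (-0.61, adjusted p = 0.00181). The calls of Jak2, Stat6 and Irf2 were each lost with TMM factors (adjusted p of 0.1003, 0.251 and 0.661).

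Negative regulators had regions at 16 of 19 genes, and 4 rose, 6 fell and 6 did not pass in share, beside 9.98% of coding genes called higher and 50.1% called lower. Pias4, a SUMO ligase that binds STATs, kept 33.8% (log2 share 0.99, adjusted p = 1.2e-32), though its region also lies over Zbtb7a. Sh2b3, an adaptor that restrains JAK2, kept 24.3% (log2 share 0.51, adjusted p = 1.3e-17). Pias2 kept 11.5% and Socs7 11.8%, and both fell in share (log2 -0.57 and -0.53, adjusted p = 1.0e-09 and 9.3e-08). Under the sparse scaling, Pias4 was at log2 0.31 (adjusted p = 0.186) and Sh2b3 at -0.17 (adjusted p = 0.473).

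Genes that sense nucleic acids and drive IRF3 and IRF7 had regions at 14 of 15, of which 1 rose, 5 fell and 8 did not pass in share. Over coding genes 9.98% were called higher and 50.1% lower. The ubiquitin ligase gene Trim25, which acts in RIG-I signalling, was the one that rose (25.2% kept, log2 share 0.56, adjusted p = 1.3e-18), and it was at -0.12 (adjusted p = 0.621) with scaling on the sparsest 25% of regions. Traf3, an adaptor between the sensors and TBK1, kept 11.0% (log2 share -0.63, adjusted p = 1.1e-15) and the DNA sensor gene Cgas 11.4% (log2 share -0.58, adjusted p = 3.1e-09). Sting1, whose product acts after cGAS, had 22.3 ± 7.57 counts with SGC0946 and 100 ± 15.9 with DMSO (SD, n = 3 each), and its share did not pass (log2 0.39, adjusted p = 0.209).

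Interferon-stimulated genes had regions at 32 of 48. Those without one include Ifit1, Ifit2, Ifit3, Ifit3b, Gbp2, Gbp3, Gbp5, Gbp7, Rsad2 and Cxcl10. In share 1 rose, 10 fell and 21 did not pass (coding genes: 9.98% higher, 50.1% lower), and Parp9 and Dtx3l were represented by the same region. Ifi35 kept 11.6% and the RNA-editing enzyme gene Adar 11.7%, and both fell in share (log2 -0.55 each, adjusted p = 7.1e-06 and 3.4e-07). Ifi47 (23.4% kept) and the peptide transporter gene Tap1 (19.1%) did not pass (log2 share 0.45 and 0.16, adjusted p = 0.0857 and 0.573). Ifi47 was called higher with TMM factors (adjusted p = 0.0174), DESeq2 size factors (0.0229) and summed regions (0.00749), and without DMSO replicate 2 (0.0458) or SGC0946 replicate 3 (0.0254). Its log2 share was 0.22 without SGC0946 replicate 1 (adjusted p = 0.668) and -0.27 under the sparse scaling (0.252). Tap1 was called lower under the sparse scaling (log2 -0.55, adjusted p = 0.00635). Mx1, named because it was the one called higher, had 13, 20 and 8 counts with SGC0946 and 43, 29 and 30 with DMSO. Its log2 share was 1.23 (adjusted p = 0.00141, against 0.109 without SGC0946 replicate 2 and 0.130 under the sparse scaling).

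**Figure D4:**
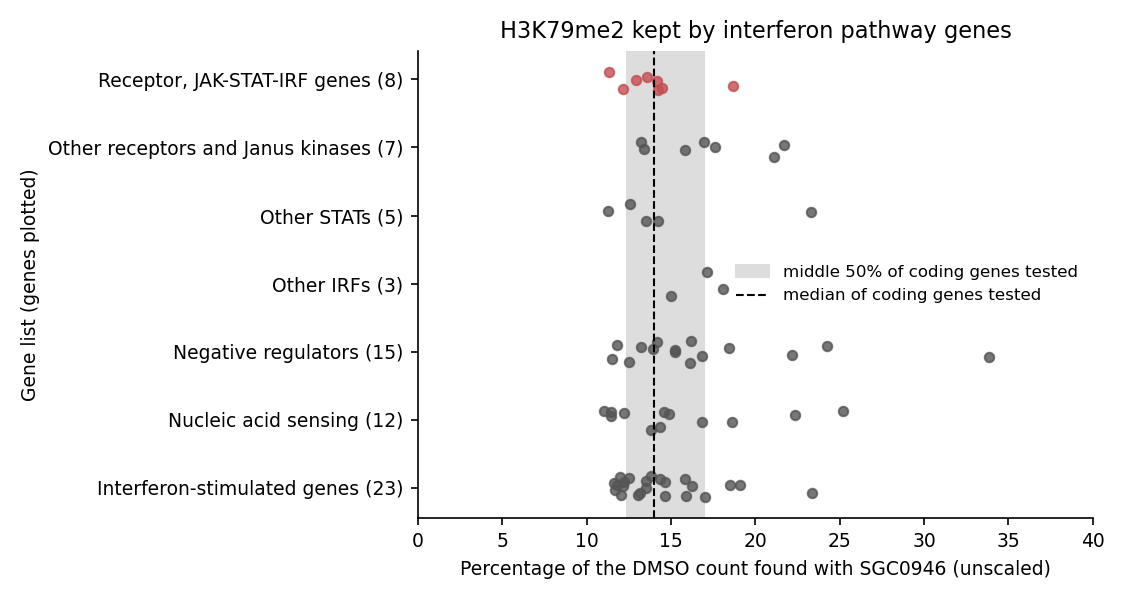
Percentage of the DMSO count found with SGC0946 (unscaled) for the 8 genes with a region and for listed pathway genes with a mean of at least 50 counts, 1 point per gene, with the middle 50% (12.4% to 17.0%) and the median (14.0%) of coding genes tested. Ifnar2 (18.7%) stands right of the other 7 receptor, JAK-STAT and IRF genes, and Pias4 (33.8%) is the highest point.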

How the data were processed

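H3K79me2 ChIP-seq was done in 6 libraries of mouse macrophages, 3 with SGC0946 and 3 with DMSO. The table the authors deposited gives read counts per region as whole numbers, with no scaling visible in the values. HISAT2, HOMER 4.11.1, bedtools 2.27.0, ChIPseeker 1.20.0, R 3.6.3 and the build mm10 are named, per the submitters' processing notes. Which tool called regions or counted reads, whether regions were called on pooled samples, and how duplicate reads were treated is not stated in the labels, and each could change the counts. Counts inside the regions were 2.95 to 3.13 M per SGC0946 library and 16.7 to 19.5 M per DMSO library, so SGC0946 counts are the less precise. These sums are not the sequencing depth, for which the labels give only a nominal 40 M reads per library.

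Regions (starts read as zero-based, printed 1-based) were matched to RefSeq gene spans of GRCm38.p6 by any overlap. A region may stand for several genes. The test over all regions was the quasi-likelihood F test of edgeR 4.0.16 under R 4.3.3 (filterByExpr, Benjamini-Hochberg over all regions tested, adjusted p under 0.05), with library totals as scaling (share) and with equal library sizes (unscaled). DESeq2 1.42.0 served as an alternative. SE is the fold change over the root of its F value. The steps were tested on simulated data. Ratios of paired genes were compared by exact permutation (scipy 1.17.1). Pairs of libraries of the same group differed by more than sampling noise (chi-square per degree of freedom 1.32 to 2.38). The genes and lists were chosen with earlier results of these data known. Genes named from the lists were up to 2 with the highest and up to 2 with the lowest percentage kept at a mean of at least 50 counts. Genes like the member with the highest count were the 3 nearest by Euclidean distance, and Mx1, Il10rb and Irf5 were named after their values were seen. Some genes of the lists are counted but not reported here by name.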

Additional observations from a re-analysis of the deposited data

How the results depend on the processing

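On unscaled counts the 8 genes fell under all 11 alternatives. In share, of 112 values of these genes under 14 alternatives, 90 kept direction and call, 15 lost the call, 6 gained it and 1 reversed (Ifnar2, -0.55 with scaling on the sparsest 25% of regions). The count of genes called lower was 5, against 2 by TMM, 3 by size factors of DESeq2, 2 by its Wald test and 8 with the sparse scaling, and 4 to 6 when a library was left out. The 1 gene called higher became 0 with summed regions, the sparse scaling and the replicate block, and 0 to 1 without a library. Of all regions, 1440 were higher and 5439 lower in share. The DESeq2 Wald test gave 2505 and 2831, TMM factors 3524 lower, a minimum mean of 50 counts 808 higher, no count filter 2784 higher, the sparse scaling 351 and 13467, and leaving out a library 918 to 2155 and 4595 to 5587. Listed genes called higher were 13 with TMM and 0 with the sparse scaling, and those called lower 18 with TMM, 18 with the Wald test and 59 with the sparse scaling. Unscaled regions called higher were 5, against 221 by DESeq2, 197 without a filter, 0 with a minimum mean of 50 counts (11055 lower), and 5 to 9 without a library. The log2 difference of the Ifnar1 to Ifnar2 ratio was -0.33 with summed regions and -0.41 to -0.36 without a library. That of Stat2 to Irf9 ran from -0.36 to 0.014, the reversal being without SGC0946 replicate 3. With the sparse scaling the log2 shares of Ifngr2 (-0.39), Il6st (-0.33), Il10rb (-0.65), Stat5a (-0.27), Irf8 (-0.61), Sh2b3 (-0.17), Sting1 (-0.34), Trim25 (-0.12), Ifi47 (-0.27) and Tap1 (-0.55) reversed, as did Il10rb (-0.017) and Irf8 (-0.20) with summed regions. The sparse scaling applies 1 factor per library, 1.04 to 1.51 with SGC0946 and 0.747 to 0.835 with DMSO, which lowers the log2 share of every gene. The cause of these and the other changes was not tested.

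Both groups use the same replicate numbers, and whether an equal number means a shared mouse is not stated. Deviations of same-numbered libraries over 11055 regions correlated at 0.00762, -0.115 and -0.00987. None of these was above the highest correlation between libraries with different numbers. The check cannot decide whether the numbers pair the libraries, because sampling noise in low SGC0946 counts could hide a shared deviation. Under the replicate block, 1414 regions were higher and 5202 lower in share, Ifnar2 had adjusted p = 0.0545, and no other call of the 8 genes changed. SGC0946 counts of 28 to 57 at Tyk2 and Irf9 limit what can be seen there.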
